A study of Mus musculus with 9 samples.

Results

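The genes described here are 49 genes of DNA replication and nucleotide synthesis, measured by RNA-seq in primary mouse lung endothelial cells (MLEC) that carried or lacked the c-Jun NH2-terminal kinases (JNK). They were taken as a list of symbols by known function, with earlier results of these data known. Of the 49 genes, 47 had a row in the expression tables, and Cdt1 and Gins2 were not analysed here. The test across genes covered 42 of them, because Orc1, Pold1, Fen1 and Ung lay below the filter on low values and Dut was listed on more than 1 row. Values are FPKM, which divides the fragments of a gene by its transcript length and by the mapped fragments of the library, so that levels of different genes are set side by side per length. The whole table held 33353 symbols that named a single locus, of which 11107 were tested.

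DNA replication starts at origins, where the origin recognition complex and Cdc6 load the ring-shaped MCM helicase, and geminin (Gmnn) prevents a repeated loading. The helicase is switched on by Cdc45 and the GINS complex, primase and the DNA polymerases copy both strands, and the clamp PCNA, placed by the RFC loader, holds the polymerases on DNA. Most of these genes are transcribed as cells go from G1 into S phase, under factors of the E2F family, so that their mRNA is abundant in dividing cell populations and scarce in resting endothelium. Endothelial cells grown in culture divide.

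The design asked how loss of JNK changes gene expression in endothelial cells, and 3 groups of 3 libraries each were sequenced. ECtrl cells were Cdh5-Cre+ with Jnk1+/+ Jnk2+/+ Jnk3-/-, EfCtrl cells were Cdh5-Cre- with Jnk1LoxP/LoxP Jnk2LoxP/LoxP Jnk3-/-, and E3KO cells were Cdh5-Cre+ with Jnk1LoxP/LoxP Jnk2LoxP/LoxP Jnk3-/-. All 3 groups therefore lacked Jnk3, and the donors were adult C57BL/6J mice of 10 to 12 weeks. The Cdh5 promoter drives Cre in the endothelial lineage, from which blood cells can also descend. Recombination in the cells of each culture was not measured here beyond the levels of the targeted genes. For each library, endothelial cells were isolated separately from the pooled lungs of several mice, selected for ICAM2 and cultured. In bulk RNA of this kind, fewer replicating cells and less mRNA per cell cannot be told apart. By EdU incorporation and staining for the Mki67 protein, the paper detected no difference in proliferation between control and E3KO MLEC. Those assays counted stained cells in culture, and they were not tested against the mRNA levels here, that of Mki67 among them.

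The targeted genes were examined first. Mapk9 (JNK2) was 27.6, 35.1 and 20.7 FPKM in E3KO and 42.7 to 50.9 in the 6 control libraries, and Mapk10 (JNK3) was at most 0.270 in any library. Mapk8 (JNK1) was 8.77 and 4.65 FPKM in E3KO replicates 2 and 3, but 20.7 in the library labelled E3KO replicate 1, above the 14.0 to 17.9 of the controls. That library stood apart in other ways too. Its FPKM summed to 9841812, against 656089 to 908401 in the others, the 10 highest symbols held 96.4% of that sum against 40.9 to 56.8%, and 40.2% of all genes tested had their lowest value in it. Results below are therefore given with and without the library labelled E3KO replicate 1 where it carries them. Endothelial markers were abundant in every library, with a summed level of 3054 to 3766 FPKM in controls and 3649 to 4078 in E3KO. Of the 10 tested, Emcn (endomucin) rose, from 822 to 1095 FPKM in controls to 1452 to 1557 in E3KO, and the tight junction gene Cldn5 fell, from 167 to 276 to 97.5 to 129 (adjusted p = 0.0261 and 0.0305 in limma), but 0 of the markers passed without the library labelled E3KO replicate 1, nor without E3KO replicate 2 or 3 or EfCtrl replicate 1 or 3. Leukocyte markers summed to 78.6 to 170 FPKM in ECtrl, 174 to 293 in EfCtrl and 226 to 351 in E3KO. All 10 tested had a positive difference, with a median of 0.68. In Itgam and Fcgr3 all 3 E3KO libraries lay above all controls, as they did in 4.99% of all genes. With all libraries 0 of the 10 passed the test, and 1, Cd68, passed without the library labelled E3KO replicate 1. Mesenchymal markers summed to 13.5 to 49.1 in ECtrl, 28.0 to 83.3 in EfCtrl and 12.5 to 26.3 in E3KO. All 6 tested had a negative difference against the mean of the controls, with a median of -1.09. With all libraries 0 of the 6 passed the test, while Acta2 passed without ECtrl replicate 1 and Col1a1 without EfCtrl replicate 1. The epithelial transcription factor Nkx2-1 was listed at 0 throughout. The club cell gene Scgb1a1 was 46.2 FPKM in the library labelled E3KO replicate 1 and at most 1.87 in the others.

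Replication genes were lower in E3KO as a group. The difference between E3KO and the mean of the 2 control groups, on the scale of log2(FPKM + 1), was below 0 for 38 of the 42 genes tested (90.5%), as it was for 62.5% of all genes. The median difference was -0.40 over the 42 genes and -0.09 over all 11107 genes. In limma with Benjamini-Hochberg adjustment over all genes, 6 members passed an adjusted p of 0.05 as lower (14.3% of those tested, against 3.21% of all genes) and 1 as higher (2.38% against 1.47%). The lower ones were the MCM subunits Mcm5 and Mcm6, the clamp Pcna, the clamp loader subunit Rfc4, DNA ligase Lig1 and thymidine kinase Tk1, and the higher one was Pole, the catalytic subunit of DNA polymerase epsilon. A further 9 members were lower with an adjusted p between 0.05 and 0.1, a range not counted over all genes. An unadjusted p under 0.05 went with 24 lower members and 1 higher, and with 2630 of all 11107 genes in either direction. The number called rested on single libraries. Among the members it was 7 with all 9 libraries, 0 without E3KO replicate 3, 1 without EfCtrl replicate 3 and 3 without EfCtrl replicate 1. It was 4 without ECtrl replicate 1 or EfCtrl replicate 2, and 6 without the library labelled E3KO replicate 1. The median stayed between -0.46 and -0.37. Calls over all genes fell as well, from 163 higher and 356 lower to 6 and 3 without E3KO replicate 3. They were 38 and 66 without EfCtrl replicate 3, and 52 and 99 without EfCtrl replicate 1.

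The separation of single libraries gave the same direction. In 16 of the 42 genes (38.1%) all 3 E3KO libraries lay below all 6 controls, as they did in 11.4% of all genes, and in 1 gene (2.38%, against 4.99%) all 3 lay above. In the other 25 genes the groups overlapped. The library labelled E3KO replicate 1 held the lowest value of 21 of the 42 genes and of 40.2% of all genes. It held the highest of 7 members and of 20.0% of all genes. The median deviation of the 42 genes from their control mean was -0.48, -0.42 and -0.36 in E3KO replicates 1 to 3. In the controls it was -0.12 to 0.24, the upper end being ECtrl replicate 1. Over all genes tested the median deviation was -0.18, -0.04 and -0.08 in E3KO replicates 1 to 3 and -0.03 to 0.03 in controls. ECtrl replicate 1 held the highest value of 20 of the 42 genes, against 19.2% of all genes, and it also had the lowest leukocyte sum, 78.6 FPKM. The part of leukocyte or mesenchymal RNA in these differences was not tested.

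**Figure D1:**
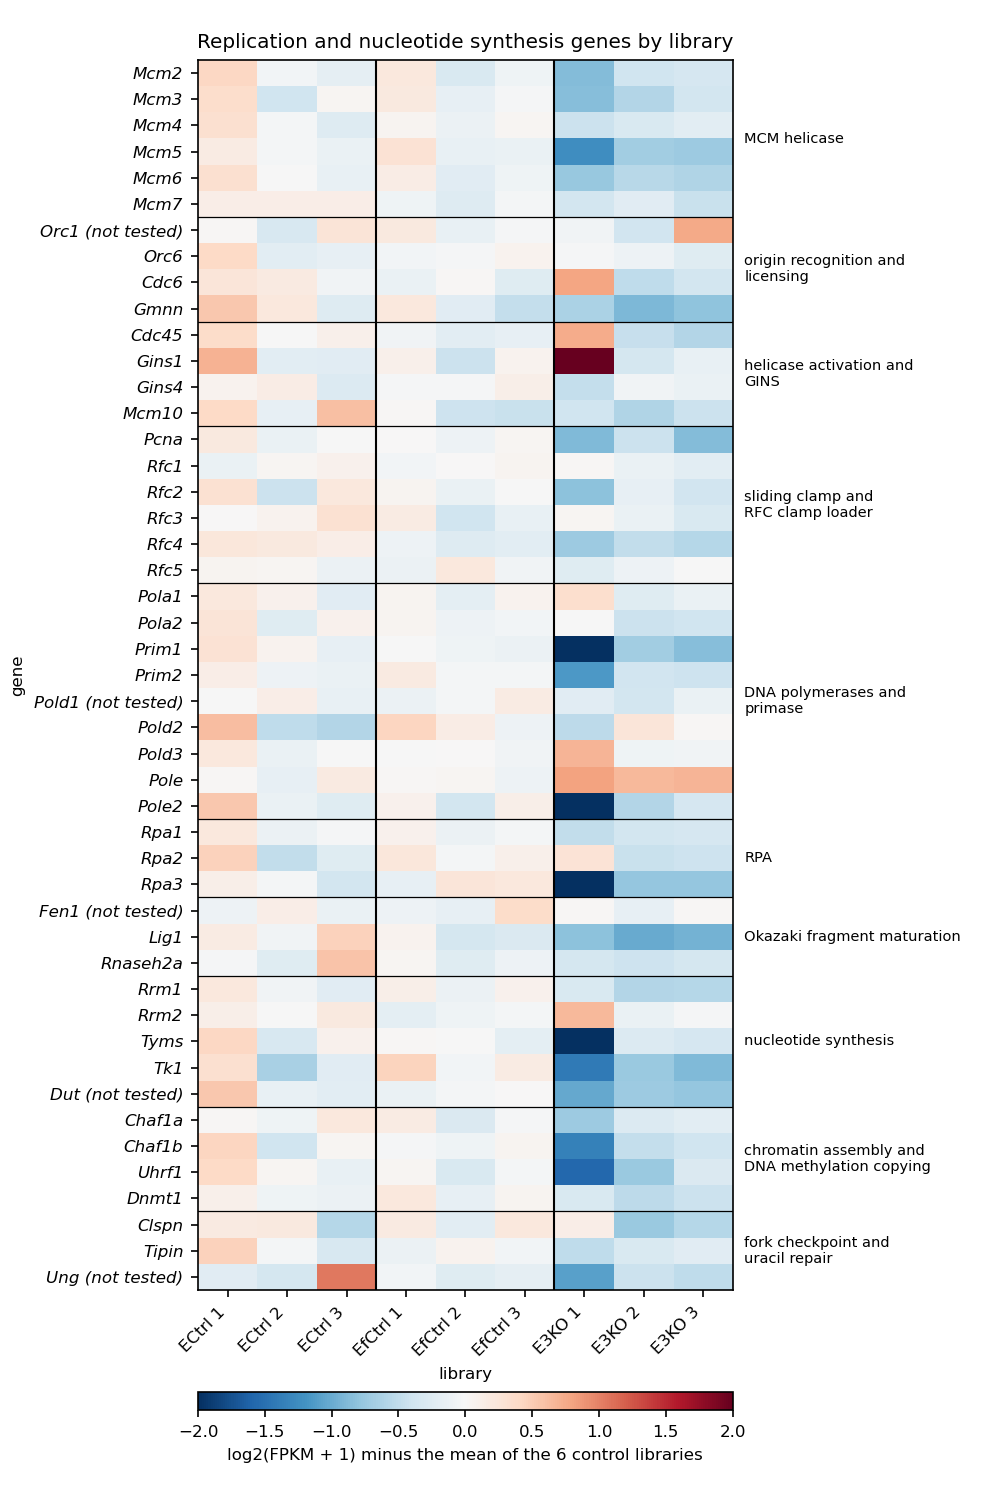
The heat map shows the 47 genes with a row (vertical axis, by role) in the 9 libraries (horizontal axis) as log2(FPKM + 1) minus the mean of the 6 controls, with colours limited to 2 in either direction. Most rows are blue in all 3 E3KO columns, Pole is red in all 3, and E3KO replicate 1 holds the darkest cells, Gins1, Prim1, Pole2, Rpa3 and Tyms among them.

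The MCM helicase is the ring of 6 related subunits that unwinds DNA at the fork. Of its subunits 2 fell, beside 3.21% of all genes called lower. All 6 subunits had a negative difference, with a median of -0.57. In 3 of them all E3KO libraries lay below all controls, as they did in 11.4% of all genes, and the other 3 overlapped. The 2 calls became 1 without ECtrl replicate 2, EfCtrl replicate 2, E3KO replicate 2 or the library labelled E3KO replicate 1, and 0 without ECtrl replicate 1, EfCtrl replicate 1 or 3, or E3KO replicate 3. Mcm5 (chr8:75109527-75128439, mm10) was 5.91, 5.01 and 4.62 FPKM in ECtrl, 6.58, 4.56 and 4.66 in EfCtrl, and 1.60, 2.80 and 2.75 in E3KO. Every E3KO value lay below every control. The mean was 2.38 ± 0.677 (SD, n = 3) against 5.22 ± 0.834 (SD, n = 6), which is 45.6% of the control level. Mcm5 fell by 0.89 ± 0.17 (SE) on the log2 scale, with an adjusted p of 0.0255 in limma. An exact two-sided permutation test over the 84 splits of 9 libraries into 3 and 6 gave an unadjusted p of 0.0119. That is the smallest p the permutation test can give. Without the library labelled E3KO replicate 1 the difference was -0.71 and the adjusted p 0.0443.

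Mcm6 (chr1:128331590-128359656) was the most abundant subunit. Its values were 32.3, 25.7 and 23.2 FPKM in ECtrl, 28.8, 21.9 and 24.2 in EfCtrl, and 14.8, 17.3 and 16.6 in E3KO, with no overlap between E3KO and controls. Mcm6 fell by 0.64 ± 0.14 (SE) on the log2 scale, with an adjusted p of 0.0387 in limma, and its adjusted p was 0.0787 without the library labelled E3KO replicate 1. The other 4 subunits differed by -0.60 (Mcm3), -0.53 (Mcm2), -0.34 (Mcm7) and -0.31 (Mcm4), with adjusted p of 0.0784 to 0.204. Of these, Mcm2 showed no overlap between the groups, with 3.36 to 5.27 FPKM in E3KO and 5.42 to 9.58 in controls. The listed locus of Mcm7 also spans Ap4m1, Cops6, Taf6 and 3 microRNA genes.

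The promoters of MCM genes and of Pcna are shown because 4 members that work at the same fork can be compared letter by letter. They are the stretches just before the RefSeq start site (build GRCm38.p6, read 5′ to 3′ on the strand of the gene), and capitals mark matches to the E2F letters TTTCCCGC, TTTGGCGC, TTTCGCGC or TTTGCCGC and to CCAAT, each searched on both strands, so that overlapping E2F matches form 1 longer run.
Mcm5, chr8:75109339-75109508, + strand: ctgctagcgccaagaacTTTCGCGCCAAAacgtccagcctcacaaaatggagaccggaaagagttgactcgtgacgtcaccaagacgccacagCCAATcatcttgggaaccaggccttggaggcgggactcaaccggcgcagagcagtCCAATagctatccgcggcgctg
Mcm6, chr1:128359706-128359835, - strand: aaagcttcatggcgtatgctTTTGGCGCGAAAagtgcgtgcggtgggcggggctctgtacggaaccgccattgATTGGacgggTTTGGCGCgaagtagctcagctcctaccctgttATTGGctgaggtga
Mcm7, chr5:138171884-138172053, - strand: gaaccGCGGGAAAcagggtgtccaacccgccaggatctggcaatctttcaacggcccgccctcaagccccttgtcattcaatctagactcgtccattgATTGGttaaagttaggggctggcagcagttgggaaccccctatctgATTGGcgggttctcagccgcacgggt
Pcna, chr2:132253181-132253310, - strand: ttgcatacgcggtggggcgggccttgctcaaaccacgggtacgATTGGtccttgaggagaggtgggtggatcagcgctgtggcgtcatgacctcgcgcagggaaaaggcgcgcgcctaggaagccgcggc

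The 3 MCM stretches shown held both kinds of match, while the Pcna stretch held a single CCAAT match and none of the E2F letters. Of the other MCM subunits with a window, Mcm3 held both kinds and Mcm2 a CCAAT match and no E2F letters. In Mcm5 the E2F matches began at -153 and -149 from the start site and CCAAT matches at -77 and -22, and in Mcm6 the E2F matches began at -110, -106 and -47. Over the members, 40 had a window of 300 bases around the start site in RefSeq. E2F letters occurred in 13 of these windows (32.5%), against 2.32% of 27025 windows of all genes, and CCAAT in 25 (62.5%), against 37.9%. The median difference in E3KO was -0.37 for the 10 tested members that held E2F letters and -0.45 for the 24 that did not. It was -0.40 for the 24 that held CCAAT and -0.67 for the 10 that did not. A match is a run of letters in a window, and absence of a match says nothing about the factor.

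Of the 3 origin licensing genes tested, 0 passed the test with all libraries, and the differences were all negative, from -0.78 to -0.03. Gmnn, whose product geminin blocks licensing by binding Cdt1, was 22.5, 17.6 and 12.5 FPKM in ECtrl, 17.6, 12.7 and 10.6 in EfCtrl, and 9.35, 7.65 and 8.24 in E3KO. The E3KO libraries lay below all controls, although EfCtrl replicate 3 came close to them. The difference was -0.78 ± 0.20 (SE), with an adjusted p of 0.0677 in limma. It was 0.0915 without the library labelled E3KO replicate 1 and 0.0422 to 0.156 over all libraries left out in turn. Orc6, a subunit of the origin recognition complex whose listed locus also spans Vps35, differed by -0.12 (adjusted p = 0.637 in limma). Cdc6, the licensing ATPase, was 0.943 and 1.13 FPKM in E3KO replicates 2 and 3 and 1.32 to 2.27 in controls, but 3.73 in the library labelled E3KO replicate 1, and its difference moved from -0.03 to -0.44 when that library was left out (adjusted p = 0.0928). Orc1 stayed under the filter, at 0.284 to 1.84 FPKM over the 9 libraries.

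Genes that activate the helicase did not pass the test, and the values of Gins1 and Cdc45 turned on the library labelled E3KO replicate 1. Gins4, a GINS subunit and the most abundant of these genes, was 23.2, 24.6 and 18.0 FPKM in ECtrl, 21.6, 21.6 and 24.0 in EfCtrl, and 15.5, 21.0 and 20.0 in E3KO, so that the groups overlapped (difference -0.23 ± 0.14 (SE), adjusted p = 0.336 in limma). Gins1 was 23.6 FPKM in the library labelled E3KO replicate 1, 3.22 and 3.86 in the other E3KO libraries, and 3.01 to 7.70 in controls. Its difference of 0.57 became -0.25 without that library. Cdc45, which travels with the helicase, was 9.23 FPKM there, 3.42 and 3.05 in the other E3KO libraries and 4.24 to 6.87 in controls, and its difference of -0.10 became -0.53 (adjusted p = 0.0610 in limma). Its listed locus also spans Ufd1. Mcm10, an initiation factor, was 1.37 to 1.71 FPKM in E3KO and 1.65 to 4.43 in controls, with a difference of -0.48 (adjusted p = 0.166).

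The sliding clamp and 1 of the 5 subunits of its loader fell, beside 3.21% of all genes called lower. Pcna (chr2:132249161-132253314), the ring that holds polymerases on DNA, was 15.4, 12.2 and 13.2 FPKM in ECtrl, 13.4, 12.4 and 13.8 in EfCtrl, and 6.81, 9.69 and 6.83 in E3KO. All 3 E3KO values lay below all controls, and the mean of 7.78 ± 1.66 (SD, n = 3) was 58.1% of the control mean of 13.4 ± 1.16 (SD, n = 6). Pcna fell by 0.73 ± 0.13 (SE) on the log2 scale, with an adjusted p of 0.0239 in limma, and it was called in 13 of the 19 alternatives. The adjusted p was 0.0548 without the library labelled E3KO replicate 1.

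Rfc4 (chr16:23107443-23127737) had values that did not overlap between any of the 3 groups. It was 6.97, 6.77 and 6.50 FPKM in ECtrl, 5.36, 4.70 and 4.90 in EfCtrl, and 3.12, 3.82 and 3.59 in E3KO. Rfc4 fell by 0.60 ± 0.09 (SE) on the log2 scale against the mean of the controls (adjusted p = 0.0157 in limma). It differed by -0.78 against ECtrl and by -0.41 against EfCtrl (adjusted p = 0.113). Its values in EfCtrl differed from those in ECtrl by -0.37 (unadjusted p = 0.00728, adjusted p = 1 in limma). Its listed locus also spans Eif4a2, an abundantly transcribed translation factor, and several small RNA genes. Rfc5, the most abundant loader subunit, was 17.7, 17.4 and 15.6 FPKM in ECtrl, 15.5, 19.7 and 16.2 in EfCtrl, and 14.2, 15.7 and 16.9 in E3KO, with overlap and a difference of -0.12 ± 0.11 (SE, adjusted p = 0.541 in limma). The large subunit Rfc1 differed by -0.11, Rfc3 by -0.13 and Rfc2 by -0.46, with adjusted p of 0.206 to 0.617. Subunits of the same loader thus had differences from -0.60 to -0.11.

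Pole was the 1 member called higher. Pole (chr5:110286305-110337474), which carries out leading strand synthesis, was 21.9, 19.2 and 24.6 FPKM in ECtrl, 22.0, 22.4 and 20.2 in EfCtrl, and 38.6, 34.6 and 35.4 in E3KO. The E3KO libraries lay within 4 FPKM of each other and above every control. The mean was 36.2 ± 2.09 (SD, n = 3) against 21.7 ± 1.86 (SD, n = 6), or 166% of the control level. The listed locus of Pole also spans 3 other annotated genes, none of them protein-coding. Pole rose by 0.71 ± 0.10 (SE) on the log2 scale, with an adjusted p of 0.0139 in limma and an unadjusted exact permutation p of 0.0119. Without the library labelled E3KO replicate 1 it rose by 0.67 (adjusted p = 0.0291 in limma). It was called in 18 of the 19 alternatives, and its adjusted p was 0.0710 in the one without E3KO replicate 3. Its accessory subunit Pole2 had lower values, with 2.41 and 3.08 FPKM in E3KO replicates 2 and 3, 2.99 to 6.42 in controls, and a value listed at 0 in the library labelled E3KO replicate 1 (difference -0.46 without that library, adjusted p = 0.293).

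The remaining polymerase and primase genes did not pass the test with all libraries. Prim1, the catalytic subunit of primase, was 10.3, 8.72 and 7.23 FPKM in ECtrl, 8.19, 7.70 and 7.56 in EfCtrl, and 0.153, 4.73 and 4.11 in E3KO. All 3 E3KO libraries lay below the controls, and the first stood far from the other 2. The difference of -1.51 ± 0.46 (SE) had an adjusted p of 0.0980 in limma, and without the library labelled E3KO replicate 1 it was smaller but past the threshold, -0.77 with an adjusted p of 0.0316. Prim2, the regulatory primase subunit, was 7.42, 6.21 and 6.03 FPKM in ECtrl, 7.74, 6.49 and 6.49 in EfCtrl, and 2.48, 4.92 and 4.76 in E3KO. It too showed no overlap, with a difference of -0.65 ± 0.18 (SE) and an adjusted p of 0.0786. The subunits of polymerase alpha differed by -0.01 (Pola1) and -0.27 (Pola2), and those of polymerase delta by -0.08 (Pold2) and 0.18 (Pold3), all with overlap. Pold3 was 21.2 FPKM in the library labelled E3KO replicate 1 and 12.1 in both other E3KO libraries, against 11.6 to 14.9 in controls. Pold1, the catalytic subunit of polymerase delta, was under the filter at 0.446 to 1.10 FPKM over the 9 libraries.

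**Figure D2:**
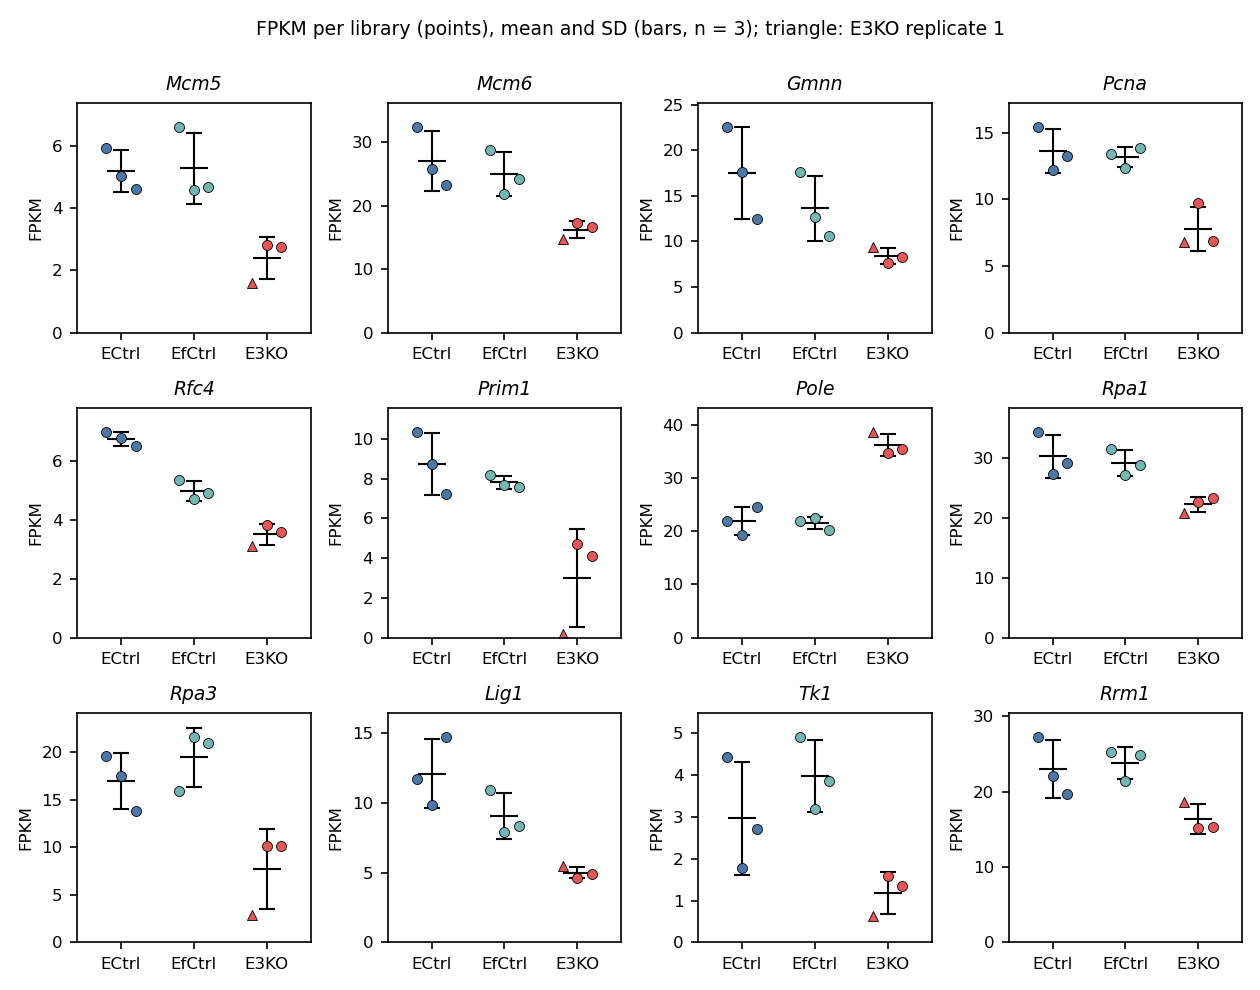
Each panel plots the FPKM (vertical axis, from 0) of a named gene in the 3 libraries of each group, with bars for the mean and SD (n = 3) and a triangle for the library labelled E3KO replicate 1. Only genes whose E3KO libraries all lay outside the controls are drawn, while in 25 of the 42 genes tested the groups overlapped. The E3KO points lie below all controls in each panel other than Pole, where the values of 34.6 to 38.6 lie above them.

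The RPA complex, which coats single-stranded DNA, had 3 negative differences and no call with all libraries. Rpa1, the large subunit, was 34.4, 27.4 and 29.3 FPKM in ECtrl, 31.5, 27.2 and 29.0 in EfCtrl, and 20.9, 22.7 and 23.4 in E3KO, 75.0% of the control level with no overlap. The difference was -0.40 ± 0.11 (SE), with an adjusted p of 0.0713 in limma. Rpa3, the small subunit, was 19.6, 17.5 and 13.8 FPKM in ECtrl, 15.9, 21.6 and 20.9 in EfCtrl, and 2.87, 10.1 and 10.1 in E3KO. Its difference was -1.28 ± 0.33 (SE, adjusted p = 0.0677), and -0.77 with an adjusted p of 0.0461 when the library labelled E3KO replicate 1 was left out. Rpa2 differed by -0.20 (adjusted p = 0.634) and overlapped.

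Okazaki fragments are joined by DNA ligase 1 after their RNA primers are removed. Lig1 (chr7:13258966-13311433) was 11.7, 9.87 and 14.7 FPKM in ECtrl, 11.0, 7.91 and 8.33 in EfCtrl, and 5.45, 4.63 and 4.93 in E3KO. All E3KO libraries lay below all controls, and the E3KO mean was 47.3% of the control mean of 10.6 ± 2.50 (SD, n = 6). Lig1 fell by 0.92 ± 0.15 (SE) on the log2 scale, with an adjusted p of 0.0161 in limma, and by 0.98 (adjusted p = 0.0317) without the library labelled E3KO replicate 1. It was called in 17 of the 19 alternatives. Rnaseh2a, the catalytic subunit of ribonuclease H2, was 12.2, 10.4 and 19.1 FPKM in ECtrl, 12.8, 10.4 and 11.6 in EfCtrl, and 9.61, 9.07 and 9.55 in E3KO. The E3KO values lay just below the lowest controls, and the difference of -0.37 ± 0.17 (SE) had an adjusted p of 0.231. Listed loci of both genes span neighbours, Zswim9 for Lig1 and Junb and Prdx2 for Rnaseh2a. The flap nuclease gene Fen1 was listed at 0 to 0.444 FPKM in every library, in a locus that also spans Tmem258, and a level of Fen1 could not be read from it.

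Of the nucleotide supply genes, 1 of the 4 tested fell, beside 3.21% of all genes called lower. Tk1 (chr11:117809667-117839908), the thymidine kinase of S phase, was 4.43, 1.77 and 2.70 FPKM in ECtrl, 4.91, 3.19 and 3.86 in EfCtrl, and 0.620, 1.58 and 1.35 in E3KO. The E3KO libraries lay below the controls, with ECtrl replicate 2 closest to them. Tk1 fell by 1.02 ± 0.24 (SE) on the log2 scale, to 34.1% of the control level, with an adjusted p of 0.0490 in limma. It was called in 4 of the 19 alternatives, its adjusted p was 0.108 without the library labelled E3KO replicate 1, and its listed locus also spans Afmid and Syngr2.

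Ribonucleotide reductase makes deoxyribonucleotides from a large and a small subunit. The large subunit Rrm1 was 27.2, 22.1 and 19.7 FPKM in ECtrl, 25.2, 21.3 and 24.9 in EfCtrl, and 18.7, 15.1 and 15.3 in E3KO, with no overlap and a difference of -0.49 ± 0.13 (SE, adjusted p = 0.0722 in limma). The small subunit Rrm2 was 15.0 and 16.4 FPKM in E3KO replicates 2 and 3, within the 14.3 to 19.1 of the controls, and 26.6 in the library labelled E3KO replicate 1. Its difference of 0.17 became -0.08 without that library. Tyms, thymidylate synthase, was 15.6 and 15.0 FPKM in E3KO replicates 2 and 3, near the lower end of the controls at 15.2 to 26.0, and 3.45 in the library labelled E3KO replicate 1. Its difference of -0.93 became -0.31 (adjusted p = 0.366). Dut, the dUTPase, was listed on 2 rows with the same values and was not tested. It was 20.5, 12.4 and 11.7 FPKM in ECtrl, 12.4, 13.3 and 13.8 in EfCtrl, and 6.30, 7.96 and 7.68 in E3KO, 52.2% of the control level with no overlap.

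Genes that rebuild chromatin and copy DNA methylation behind the fork had 4 negative differences, with a median of -0.58, and none passed the test. Chaf1b, a subunit of chromatin assembly factor 1, was 6.50, 3.22 and 4.69 FPKM in ECtrl, 4.47, 4.23 and 4.75 in EfCtrl, and 1.17, 3.01 and 3.21 in E3KO. All E3KO values were below the controls, but E3KO replicate 3 and ECtrl replicate 2 nearly met (difference -0.74 ± 0.24 (SE), adjusted p = 0.121 in limma). Dnmt1, the maintenance methyltransferase, was 7.57, 6.51 and 6.37 FPKM in ECtrl, 8.28, 6.18 and 7.32 in EfCtrl, and 5.47, 4.56 and 4.96 in E3KO. It showed no overlap, and its difference of -0.42 ± 0.11 (SE) had an adjusted p of 0.0757. Its partner Uhrf1, which brings Dnmt1 to newly copied DNA, was 0.241 to 2.02 FPKM in E3KO and 1.98 to 3.88 in controls, with a difference of -0.87 (adjusted p = 0.0987) and of -0.51 without the library labelled E3KO replicate 1. Chaf1a differed by -0.40 (adjusted p = 0.165).

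Of the fork checkpoint genes, Tipin was 20.8, 14.4 and 11.6 FPKM in ECtrl, 13.7, 15.6 and 14.3 in EfCtrl, and 10.1, 11.8 and 12.6 in E3KO. The groups overlapped through ECtrl replicate 3, and the difference of -0.35 ± 0.17 (SE) had an adjusted p of 0.253 in limma. Claspin (Clspn) was 0.953 to 2.55 FPKM in E3KO and 1.20 to 2.77 in controls, with a difference of -0.39 (adjusted p = 0.352). The uracil glycosylase gene Ung was under the filter, at 0.0242, 0.604 and 0.525 FPKM in E3KO and 0.701 to 3.50 in controls.

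E3KO was then set against each control group, which shared the 3 E3KO libraries. Against ECtrl, 3 members fell (Rfc4, Lig1 and Pcna) and Pole rose, beside 1.35% of all genes called lower and 0.774% higher, and the median difference of the 42 members was -0.46. The adjusted p of these 4 were 0.0189 for Rfc4, 0.0246 for Lig1, 0.0291 for Pole and 0.0495 for Pcna in limma. Leaving out ECtrl replicate 1, EfCtrl replicate 3 or E3KO replicate 3 left 0 of the 4, leaving out EfCtrl replicate 2 left 1 call, and leaving out EfCtrl replicate 1 or E3KO replicate 2 left 2. Against EfCtrl, Pole alone rose (0.72 ± 0.12 (SE), adjusted p = 0.0392), beside 0.333% of all genes called higher, and 0 members were called lower, beside 0.558% of all genes. There, 16 members were lower and 1 higher with an unadjusted p under 0.05, beside 1956 of all 11107 genes in either direction. The median difference of the members was -0.36. The call of Pole against EfCtrl was lost without ECtrl replicate 2, any single EfCtrl library or any single E3KO library. Without ECtrl replicate 1 there were 2 member calls against EfCtrl. Over all genes, 37 higher and 62 lower calls against EfCtrl became 1 and 0 without E3KO replicate 3. Against ECtrl, 86 higher and 150 lower calls also became 1 and 0 there.

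The control groups were compared with each other in the same fit. Between EfCtrl and ECtrl 0 members were called in either direction in limma, as were 0% of all genes, and every adjusted p was 1. An unadjusted p under 0.05 went with 3 members, all lower in EfCtrl, and with 202 of all 11107 genes in either direction. The 3 members were Rfc4 (-0.37, unadjusted p = 0.00728), Mcm10 (-0.55, 0.0303) and Mcm7 (-0.26, 0.0455). The median difference was -0.05. The largest differences between the controls were -0.55 (Mcm10) and 0.37 (Tk1), while the differences between E3KO and the mean of the controls ran from -1.51 (Prim1) to 0.71 (Pole), and from -0.98 (Lig1) to 0.67 (Pole) without the library labelled E3KO replicate 1.

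**Figure D3:**
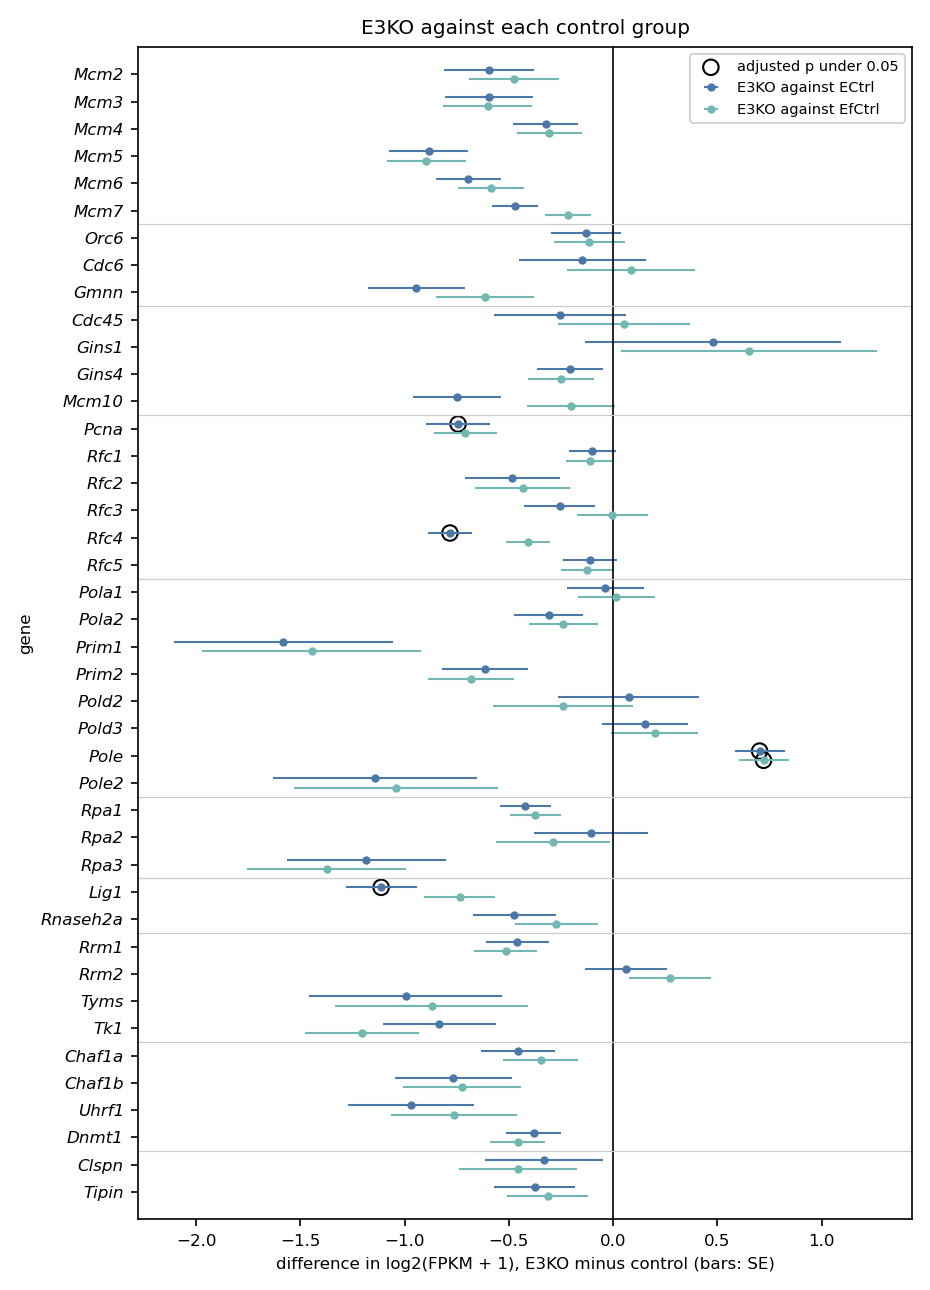
For each of the 42 genes tested (vertical axis) the plot gives the difference in log2(FPKM + 1) of E3KO against ECtrl and against EfCtrl (horizontal axis, bars for the SE), with circles for an adjusted p under 0.05. Most points lie left of 0 against either control, Pole lies near 0.7 against both and carries both circles, and Gins1 and Prim1 have the widest bars.

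Other genes of the pathway were examined in the same fit, for E3KO against the mean of the controls. Their lists, too, were chosen with earlier results of these data known. In that comparison with the mean of the controls, 3.21% of all genes were called lower and 1.47% higher, with a median of -0.09. Of 30 further replication genes 24 were tested, with a median difference of -0.27 between E3KO and the mean of the controls. Among them 2 fell, Dna2, a flap nuclease, from 1.49 ± 0.571 (SD, n = 6) to 0.397 ± 0.270 FPKM (SD, n = 3), and Topbp1, a replication and checkpoint adaptor, from 16.5 ± 0.903 to 12.8 ± 0.160 FPKM (adjusted p = 0.0451 and 0.0494 in limma). Neither was called when any single library was left out, where Dna2 in some cases also dropped under the filter. Mcm8 was called without ECtrl replicate 3, and Nasp, Dbf4 and Orc5 without the library labelled E3KO replicate 1. All 16 further nucleotide synthesis genes were tested, with a median of -0.06, and 1 fell, the salvage enzyme Dck, which differed by -0.50 (adjusted p = 0.0381). The call of Dck was lost without each library in turn other than ECtrl replicate 3 (adjusted p = 0.0670 without the library labelled E3KO replicate 1). Of the E2F and RB family, 12 of 13 genes were tested, the median was -0.38, and 1 fell, the E2F partner Tfdp2, from 6.68 ± 0.553 (SD, n = 6) to 4.35 ± 0.290 FPKM (SD, n = 3, adjusted p = 0.0232). Tfdp2 kept its call without the library labelled E3KO replicate 1 (adjusted p = 0.0351) and lost it without E3KO replicate 2 or 3 or EfCtrl replicate 1 or 3 (adjusted p of 0.0564 to 0.0976). E2f1 itself was 1.84 to 2.70 FPKM in E3KO and 1.66 to 3.72 in controls.

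Mitosis genes were lower in the same libraries. Their list was chosen with earlier results of these data known, so its counts are a description and not a test of the list. Of 25 tested, 18 fell and 0 rose, beside 3.21% of all genes called lower and 1.47% higher. The median difference was -0.93, against -0.09 over all genes. In 20 genes all 3 E3KO libraries lay below all controls, as they did in 11.4% of all genes. Prc1, which bundles spindle microtubules, was 8.75 to 9.91 FPKM in E3KO and 21.6 to 36.2 in controls, a difference of -1.40 ± 0.16 (SE, adjusted p = 0.0104 in limma). Cenpe, a kinetochore motor, differed by -0.82 and Anln, the cytokinesis protein anillin, by -0.94. Tpx2, a spindle assembly factor, differed by -0.91 and Kif20a, a cytokinesis motor, by -0.76. Mki67, whose protein the paper stained, was 2.92 to 4.29 FPKM in E3KO and 6.85 to 9.10 in controls. Its difference was -0.98 ± 0.13 (SE, adjusted p = 0.0119 in limma), and it was not tested against the staining. By library, the median deviation of the mitosis genes was -0.88, -1.02 and -0.97 in E3KO replicates 1 to 3 and -0.24 to 0.37 in controls. ECtrl replicate 1 was the highest control for both gene lists. These calls also rested on single libraries: the count was 0 without E3KO replicate 3, 8 without EfCtrl replicate 3, 10 without EfCtrl replicate 1, 12 without E3KO replicate 2 and 16 to 19 without each of the other 5 libraries, while the median stayed between -1.02 and -0.86. Over all genes, calls were also fewer without each library in turn, down to 6 higher and 3 lower without E3KO replicate 3. The difference between the replication and mitosis lists was not tested.

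**Figure D4:**
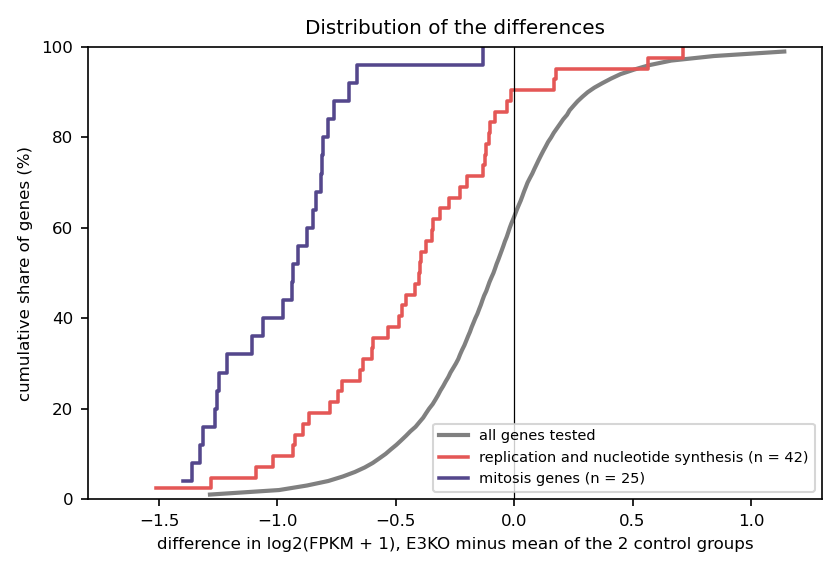
Cumulative curves give the share of genes (vertical axis, %) at or below a difference in log2(FPKM + 1) between E3KO and the mean of the 2 control groups (horizontal axis). The curve of the 42 replication and nucleotide synthesis genes lies left of that of all genes over most of its range, and that of the 25 mitosis genes further left, with medians of -0.40 for the members, -0.09 for all genes and -0.93 for the mitosis genes.

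**Figure D5:**
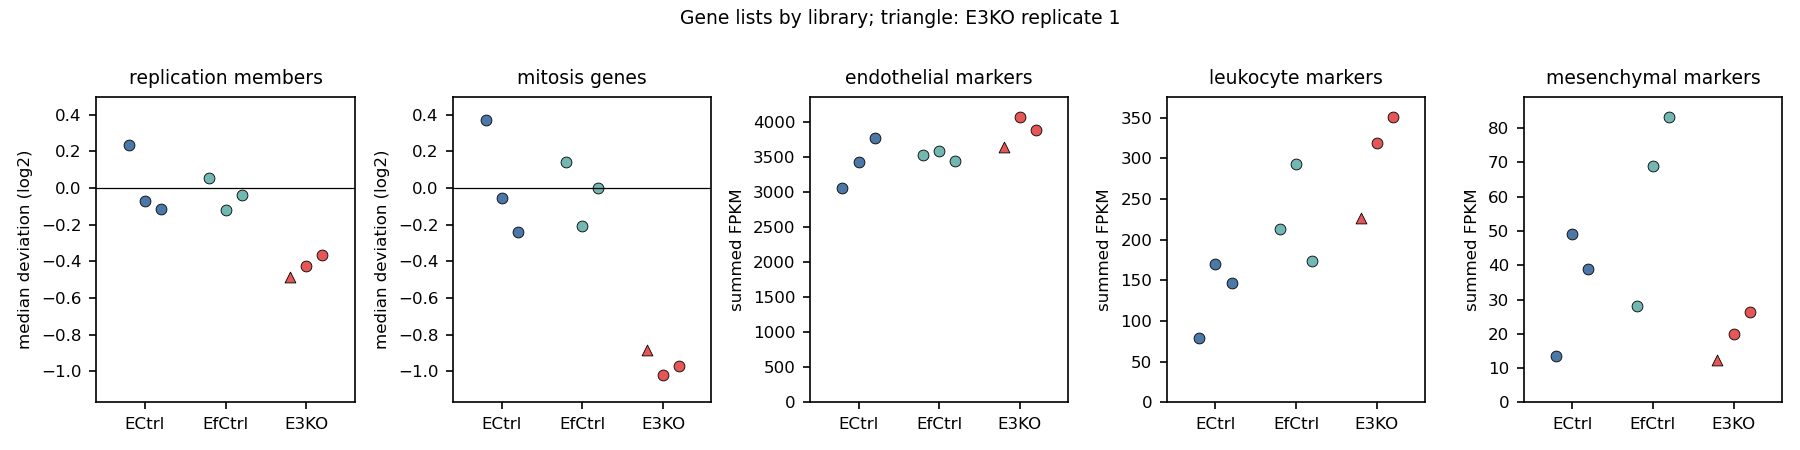
Panels give, for each library, the median deviation of the replication members and of the mitosis genes from their control means (log2) and the summed FPKM of endothelial, leukocyte and mesenchymal markers, with a triangle for the library labelled E3KO replicate 1. Both medians are lower in all 3 E3KO libraries than in any control, while the marker sums of leukocytes (226 to 351 in E3KO) and mesenchymal cells (12.5 to 26.3) overlap the controls.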

How the data were processed

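RNA-seq of 9 MLEC libraries (3 each of ECtrl, EfCtrl and E3KO) was analysed from gene tables in which the authors deposited an FPKM value per gene and library. According to the methods and the submitters' processing notes, the authors aligned paired reads to mm10 with TopHat and Bowtie, estimated FPKM with Cufflinks 1.0.3, merged transcript models and compared groups with Cuffdiff. Columns of group FPKM, fold change, p-value and q-value hold the authors' comparisons and were not used. Use of strand in counting is not given in the sources used here. Groups and replicate numbers were taken from the sample titles, and replicates are separate isolations.

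Of 37104 loci, 3749 with a repeated symbol were left out of the test, and 2 loci held text in place of a value. FPKM does not keep the number of reads, so the depth behind each value is unknown and counting error could not be computed. Differences are on the log2(FPKM + 1) scale, which understates the change of low genes. Genes with a mean log2(FPKM + 1) of 1 or more over all 9 libraries (11107) entered 1 fit with 3 group means in limma 3.58.1 (R 4.3.3), and p-values were adjusted by Benjamini-Hochberg over all of them, with calls at 0.05. Single members were also compared by an exact permutation test over libraries, whose p-values were not adjusted over genes.

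The members and all gene lists were chosen with earlier results of these data known. Values in every library are given for members called in any contrast, for the most abundant member of each role, and for members whose E3KO libraries all lay outside the controls (at most 10 each). Genes of other lists were named if called, at most 5 per list. E2f1, Mki67, Nkx2-1, Scgb1a1, Itgam, Fcgr3, Cd68, Acta2, Col1a1, Mcm8, Nasp, Dbf4 and Orc5 fall outside this rule and were named after their values were seen. Alternatives were other pseudocounts and filters, 2 rescalings, other moderation, a replicate block, a fit of the compared groups alone and leaving out each library. Promoter sequences and windows are those of RefSeq (GRCm38.p6), matched by symbol, with 40 of 49 members found. Of the listed loci, 11 contain another protein-coding gene in GENCODE.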

Additional observations from a re-analysis of the deposited data

Results flagged for a closer look

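Of 47 sets of 6 control values, 4 held a highest library whose gap to the next exceeded Dixon's critical share of the range, a rule that chance meets in about 1 of 20 sets. Gins1 was 7.70 FPKM and Dut 20.5 FPKM in ECtrl replicate 1, the library that was highest for 20 of the 42 members tested and for 19.2% of all genes. Rnaseh2a was 19.1 FPKM and Ung 3.50 FPKM in ECtrl replicate 3, beside 10.4 to 12.8 FPKM and 0.701 to 1.08 FPKM in the other 5 controls. None of the 4 genes was called in any of the 4 contrasts with all libraries, and Dut and Ung were not tested.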

How the results depend on the processing

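The median difference of the members was negative against the mean of the controls, ECtrl and EfCtrl under every alternative run. Against EfCtrl it moved beyond the spread between replicates once, to -0.23 with a pseudocount of 5. Between EfCtrl and ECtrl the median of -0.05 turned to 0.0487 without ECtrl replicate 1. Counts of called members were less stable. Against EfCtrl the count of 1 became 0 with a pseudocount of 0.1 and with no filter on low values. With only the compared groups in the fit it was 0 against ECtrl and 0 against EfCtrl, and 10 against the mean of the controls. Leaving out 1 library gave 0 to 7 calls against the mean of the controls, 0 to 4 against ECtrl, 0 to 2 against EfCtrl and 0 between the controls, with medians of -0.46 to -0.37, -0.49 to -0.34, -0.43 to -0.32 and -0.14 to 0.05. Over all genes, 163 higher and 356 lower calls against the mean of the controls became 6 and 3 without E3KO replicate 3. Of the values for named genes under alternatives, 312 kept their direction and side of the threshold, 41 lost and 8 gained a call, and 0 changed sign. Centring each library on its median moved the share of higher calls among all genes from 31.4% to 45.7%, with 6 members called.

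Libraries with the same replicate number came from different isolations, and their deviations from the group means correlated by -0.05 to 0.14. Libraries with different numbers correlated by -0.24 to 0.09. Whether isolations of the same number were handled together is not given in the sources used here, and these correlations cannot decide it. With the replicate number as a block, 4 members were called against the mean of the controls, 0 against ECtrl, 0 against EfCtrl and 0 between the controls.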
